A study of Mus musculus with 24 samples.

Results

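The 10 genes described here are immediate early transcription factor genes and were taken by symbol from 55376 genes counted in mouse hematopoietic stem and progenitor cells. They are the FOS members Fos, Fosb and Fosl2, the JUN members Jun, Junb and Jund, the EGR zinc-finger factors Egr1 and Egr3, the stress-responsive bZIP factor Atf3, and Ier2, a small nuclear regulator that is induced early. The rule is by symbol and uses no measured value, although the genes were chosen with earlier results of these data known.
Bulk mRNA-seq libraries were compared for 24 sorted samples in 6 groups. HSCs, the multipotent stem cells of the marrow, came from young WT mice (Y-WT, n = 4), young TTPΔARE mice (Y-TTPΔARE, n = 4), middle-aged WT mice (M-WT, n = 5) and middle-aged TTPΔARE mice (M-TTPΔARE, n = 3). MPP3 cells, a myeloid-biased multipotent progenitor population, came from young WT mice (n = 4) and young TTPΔARE mice (n = 4). All 4 libraries of the last group are used here, and the study's own comparison left 1 out. No mouse was treated. All mice were male by the study's methods. The TTPΔARE mice were homozygous for an allele of Zfp36 that lacks an AU-rich element of its 3′ UTR, and the controls were WT littermates. The allele is present in every cell of the animal, so sorted cells also came from a TTPΔARE marrow. The HSC gate was LSK CD34- Flk2- CD150+. The labels do not say whether a library held 1 or several animals, so p-values measure the spread between libraries.

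Immediate early genes are transcribed within minutes of a growth factor, cytokine or stress signal, without new protein synthesis. FOS and JUN proteins pair as AP-1, EGR proteins bind GC-rich promoter sites, and many of these mRNAs decay quickly through AU-rich elements (AREs) of the 3′ UTR, built around the pentamer ATTTA in DNA letters. Tristetraprolin (TTP), the protein made from Zfp36, binds such elements and recruits deadenylases.

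The ARE letters of the genes that the results turn on, and of Zfp36, are shown first because the genotype changes the level of an ARE-binding protein. Each line is a 30-base window of the reference 3′ UTR (GENCODE M21, GRCm38, transcript strand, 5′ to 3′), with the pentamers ATTTA in capitals. The Fos window is on chr12:85477102-85477131 (plus strand), in a gene that spans chr12:85473890-85477273. The others are Fosl2 on chr5:32156866-32156895 (plus), Jun on chr4:95049078-95049107 (minus), Atf3 on chr1:191170337-191170366 (minus) and Zfp36 on chr7:28376957-28376986 (minus).
Fos: gtgttttcaATTTATTTAttaagatggatt
Fosl2: ttgacATTTAttttattATTTAttttaaat
Jun: ttgcttgtgcatATTTAtaatagcgttcgt
Atf3: aaaatattacttATTTAtcccagtattcct
Zfp36: ctttATTTAtgacgactttATTTAttgtat

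In the Fos window the pentamers overlap, and those of Fosl2 and Zfp36 stand apart. Over the whole 3′ UTR, counted on the transcript strand with overlaps, ATTTA occurred 8 times in Fosl2 (4653 bases), 7 in Egr3 (2645 bases), 4 in Fos (815 bases), 4 in Jun (1233 bases), 3 in Atf3 (1186 bases), 2 in Junb and in Egr1, 1 in Fosb and in Jund, and 0 in Ier2. It occurred 3 times in the 774 bases of Zfp36. Of 20879 genes with a 3′ UTR, 62.2% held ATTTA at least once and 32.5% at least 3 times, at a median length of 812 bases. The nonamer TTATTTATT, a stricter ARE form, was in the 3′ UTRs of Fos, Fosl2 and Zfp36 (1 each) and in 7.03% of all genes. These letters are descriptions of the reference and not measured binding sites.

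Library totals lay between 24261371 and 39934554 counts (median 34817620.5). Levels are given as CPM, counts normalized to the size of each library with TMM factors over the 24 libraries. The summed level of 10 HSC markers was 2610 to 4090 CPM in HSC libraries and 1350 to 2530 CPM in MPP3 libraries, and that of 10 MPP and myeloid progenitor markers was 327 to 628 CPM and 2260 to 4950 CPM, so each sort carried its own markers. Receptor genes of smell and pheromone sensing, 1736 genes taken as a background, summed to 17.8 to 1048 CPM, with a median of 757 CPM in Y-WT HSCs, 340 CPM in Y-TTPΔARE HSCs and 68.7 to 199.5 CPM in the other groups. Monocyte and macrophage markers (8 genes, summed) lay at 81.3 to 318 CPM in young HSC libraries and at 21.4 to 51.8 CPM in middle-aged ones.
Zfp36 was higher in every TTPΔARE library than in every WT library of its set. In young HSCs it was at 72.6, 33.1, 35.9 and 53.7 CPM in Y-WT and at 113, 91.6, 83.3 and 94 CPM in Y-TTPΔARE (edgeR adjusted p = 0.238). In middle-aged HSCs it rose by 0.97 on the log2 scale (SE 0.11, edgeR adjusted p = 0.002) and in MPP3 cells by 1.80 (SE 0.18, edgeR adjusted p = 6.46e-04).

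The genes differed in their level of expression, and libraries of genes of similar level overlapped in part. Per kilobase of exon, Ier2 was the highest of the 10 in each group (61 to 78.1 CPM per kb as group means), followed by Jund (21.3 to 41.5) and Junb (20.4 to 30.4). Jun had group means of 6.48 to 24.3 CPM per kb and Egr1 of 2.58 to 15.2, and the libraries of these neighbours did not overlap in M-TTPΔARE HSCs and Y-WT MPP3 cells and overlapped in the other groups. Jund and Junb overlapped outside M-TTPΔARE HSCs, and Ier2 overlapped with neither. Fos and Fosl2 had lower means than Jun and Egr1 in each group, at 1.01 to 11.2 and 1.15 to 2.56 CPM per kb. Libraries of Fos and Egr1 did not overlap in young HSCs and overlapped in the other groups. Those of Fos and Jun overlapped in M-WT HSCs and Y-TTPΔARE MPP3 cells, and those of Fosl2 and Egr1 in both MPP3 groups. Fosb, Egr3 and, outside Y-TTPΔARE MPP3 cells, Atf3 were close to the counting limit, with group means of at most 0.303 CPM per kb.
Fosb did not exceed 2.46 CPM in any library and Egr3 did not exceed 1.09 CPM. Egr3 had no count in 4 libraries and Atf3 in 1, which allows up to 0.0857 CPM at a floor of 3 counts per library, a floor that covers counting error only. The average logCPM of Fosb, Egr3 and Atf3 was below 1.5 in each comparison, under the limit for a call given next, and that of the other 7 genes was above it.

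**Figure D1:**
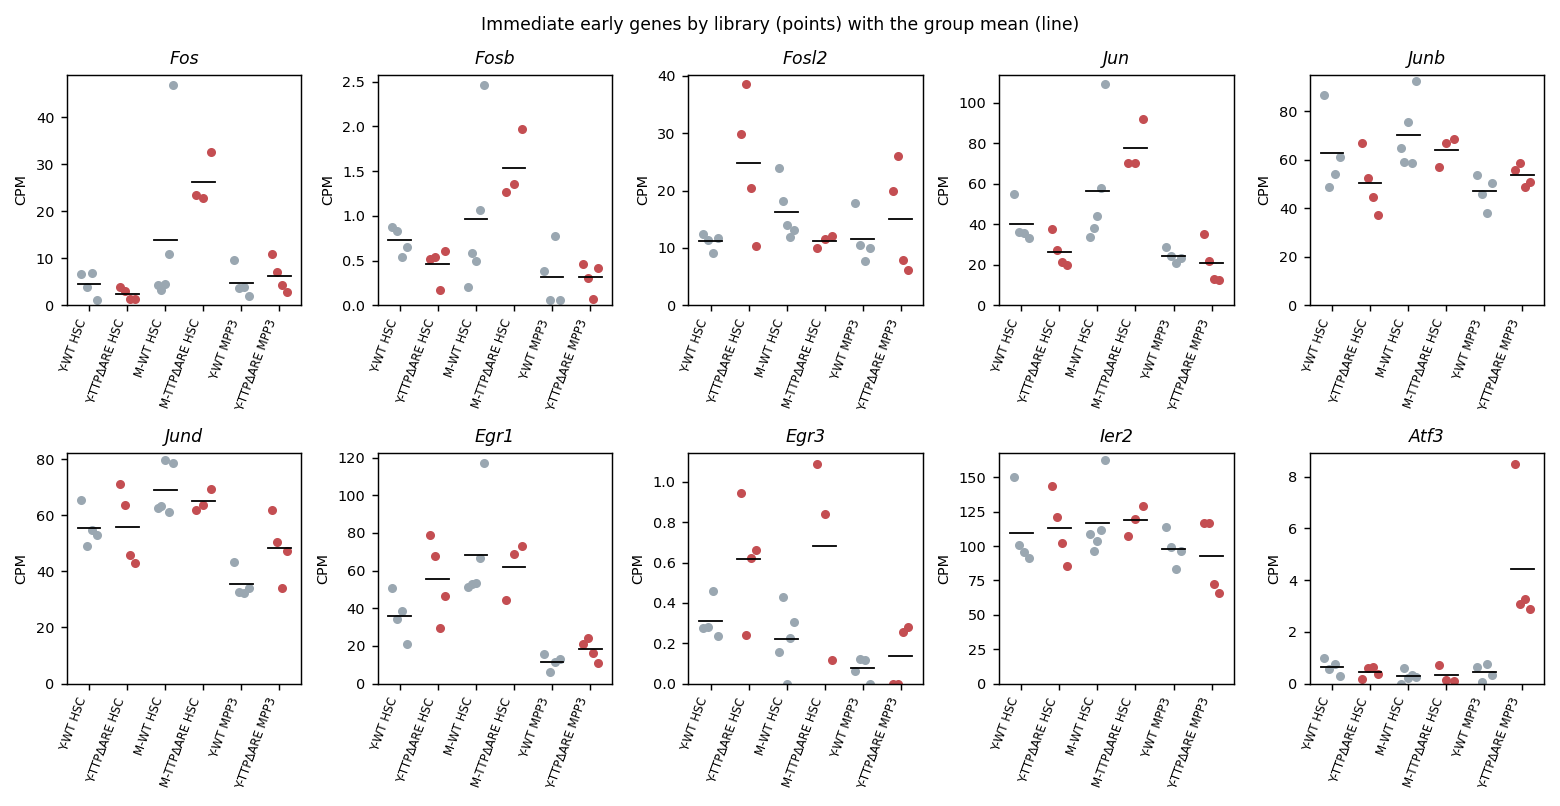
CPM of the 10 genes (y axes, each from 0) in the 6 groups (x axis), grey for WT and red for TTPΔARE, with points for libraries and a line for the group mean. Fos is at 22.8 CPM or above in the 3 M-TTPΔARE libraries and in 1 of 5 M-WT libraries, Egr1 is lower in MPP3 cells than in HSCs, and Atf3 is above 2 CPM in the 4 Y-TTPΔARE MPP3 libraries alone.

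The first question was whether more Zfp36 mRNA went with other levels of these genes. A call needed an edgeR quasi-likelihood adjusted p below 0.05 together with a fold above 1.2 and a mean logCPM above 1.5, the limits of the study's methods. None of the 10 was called in young HSCs, in middle-aged HSCs or in MPP3 cells, where 0.0246%, 1.41% and 1.71% of all genes tested were called. At an unadjusted p under 0.05 the counts were 2, 1 and 2 of the 10, against 7.38%, 16.0% and 12.1% of all genes, and DESeq2 called 1, 0 and 0. With 1 shared genotype effect fitted over the 3 sets, none was called either (1.38% of all genes called, 1 of the 10 and 11.8% of all genes at an unadjusted p under 0.05, 0 of the 10 called by DESeq2). The study itself reported far more changed genes in young HSCs at these limits than the 6 called here. Among them were Zfp36 and Fosl2 as higher and Jun as lower in TTPΔARE. Zfp36, the targeted gene, was not called here in young HSCs, although its genotypes did not overlap. The lack of a call in young HSCs therefore does not show that a gene was unchanged. In bulk samples, a change in the share of a cell type and a change of RNA per cell cannot be told apart.

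Fos, the inducible partner of JUN proteins, did not move in 1 direction. It was at 6.74, 3.82, 6.79 and 1.01 CPM in Y-WT HSCs and at 3.95, 2.96, 1.33 and 1.29 CPM in Y-TTPΔARE HSCs, so the groups overlapped (log2 fold change -0.96, SE 0.56, edgeR adjusted p = 0.717). In MPP3 cells it was at 9.6, 3.65, 3.81 and 2 CPM in Y-WT and at 10.9, 7.15, 4.31 and 2.8 CPM in Y-TTPΔARE (log2 fold change 0.40, SE 0.52, edgeR adjusted p = 0.796). The genotypes overlapped in both cell types.
In middle-aged HSCs, Fos was at 23.4, 22.8 and 32.6 CPM in M-TTPΔARE. In M-WT it was at 4.27, 3.28, 4.57, 10.8 and 46.8 CPM, so that 4 libraries lay below all M-TTPΔARE libraries and replicate 5 above them. The log2 fold change was 0.94 (SE 0.73, edgeR adjusted p = 0.561). Without M-WT replicate 5 it was 2.22 (SE 0.35, edgeR adjusted p = 0.0167), and without any other library it was between 0.68 and 1.02 with an adjusted p of at least 0.626.
Jun, the main JUN partner of Fos, had the same arrangement. It was at 70.3, 70.4 and 91.9 CPM in M-TTPΔARE and at 33.9, 38, 44, 58 and 109 CPM in M-WT, with replicate 5 again above the 3 M-TTPΔARE libraries. The log2 fold change of 0.48 (SE 0.32, edgeR adjusted p = 0.484) became 0.86 without M-WT replicate 5 (SE 0.17, edgeR adjusted p = 0.04). M-WT replicate 5 thus decided both calls, and nothing in its labels sets it apart.

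**Figure D2:**
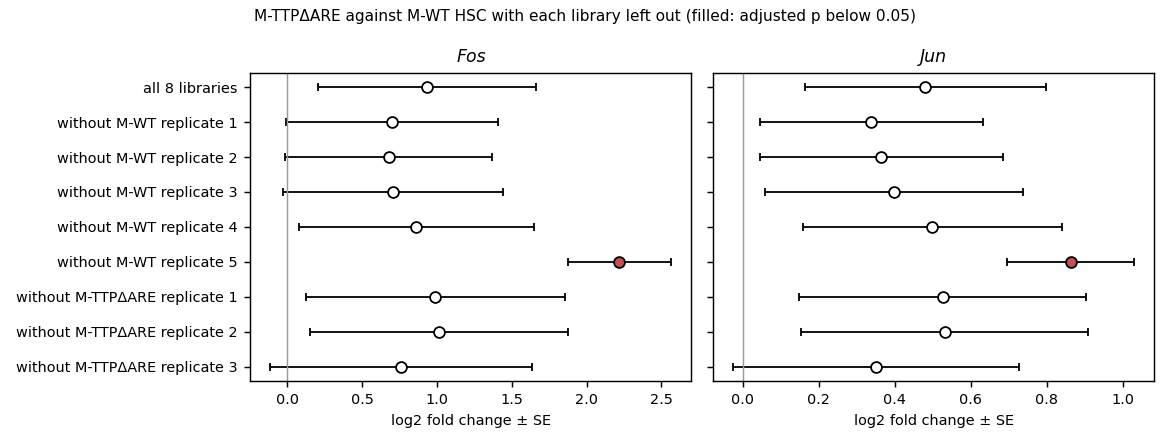
log2 fold change ± SE (x axes) of Fos and Jun between M-TTPΔARE and M-WT HSCs, with all libraries and with each of the 8 left out (y axis), filled where the adjusted p is below 0.05. The values without M-WT replicate 5, 2.22 for Fos and 0.86 for Jun, are the only filled ones.

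Fosl2, the FOS member with the longest 3′ UTR and the most pentamers of the 10, was at 29.9, 38.6, 20.4 and 10.3 CPM in Y-TTPΔARE HSCs and at 12.4, 11.4, 9.09 and 11.7 CPM in Y-WT HSCs. In 3 of 4 Y-TTPΔARE libraries the level lay above all Y-WT libraries. The log2 fold change was 1.14 (SE 0.32), with an unadjusted p = 0.005 and an edgeR adjusted p = 0.344, and DESeq2 called it at 1.16 (SE 0.31, adjusted p = 0.0202).
In middle-aged HSCs the sign of the Fosl2 difference was opposite. It was at 9.99, 11.5 and 12 CPM in M-TTPΔARE and at 23.9, 18.1, 14, 11.9 and 13.2 CPM in M-WT (log2 fold change -0.51, SE 0.20, edgeR adjusted p = 0.239). The test of the difference between the ages gave -1.70 (SE 0.42, unadjusted p = 9.44e-04, edgeR adjusted p = 0.221), against -1.65 (SE 0.41) and an adjusted p = 0.0184 by DESeq2. Fosl2 in MPP3 cells was at 19.9, 26.1, 7.91 and 6.12 CPM in Y-TTPΔARE and at 17.9, 10.5, 7.73 and 10 CPM in Y-WT (log2 fold change 0.38, SE 0.44, edgeR adjusted p = 0.761). The genotypes overlapped there.

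Among the JUN genes, Jun in young HSCs was at 37.5, 27.1, 21.3 and 19.9 CPM in Y-TTPΔARE and at 55, 35.9, 35.4 and 33.4 CPM in Y-WT, with 3 of 4 Y-TTPΔARE libraries below all Y-WT libraries (log2 fold change -0.61, SE 0.21, unadjusted p = 0.0146, edgeR adjusted p = 0.465). In MPP3 cells it was at 35.3, 22, 12.8 and 12.6 CPM against 28.7, 24.5, 20.8 and 23.2 CPM in Y-WT (log2 fold change -0.22, SE 0.29, edgeR adjusted p = 0.797). The difference of the genotype effect of Jun between the ages was 1.05 (SE 0.43, edgeR adjusted p = 0.295).
Junb, a JUN protein that can restrain Jun, differed by -0.33 (SE 0.19) in young HSCs, -0.10 (SE 0.14) in middle-aged HSCs and 0.22 (SE 0.12) in MPP3 cells on the log2 scale, with edgeR adjusted p between 0.510 and 0.765. Jund, the most constitutive JUN gene, differed by -0.01 (SE 0.15), -0.06 (SE 0.10) and 0.46 (SE 0.17), with edgeR adjusted p = 0.988, 0.806 and 0.288. In MPP3 cells Jund was at 61.9, 50.4, 34.1 and 47.2 CPM in Y-TTPΔARE and at 43.5, 32.7, 32.2 and 34.1 CPM in Y-WT. In 3 of 4 Y-TTPΔARE libraries the level lay above all Y-WT libraries.

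Egr1, a zinc-finger factor expressed in quiescent HSCs, was at 79.1, 67.5, 29.5 and 46.4 CPM in Y-TTPΔARE HSCs and at 50.8, 34.3, 38.4 and 20.8 CPM in Y-WT HSCs (log2 fold change 0.61, SE 0.31, edgeR adjusted p = 0.708). In MPP3 cells it was at 21.1, 24.2, 16.1 and 11 CPM in Y-TTPΔARE and at 15.6, 6.36, 11.2 and 13.1 CPM in Y-WT (log2 fold change 0.66, SE 0.31, edgeR adjusted p = 0.436). The difference had the opposite sign in middle-aged HSCs, with 44.1, 68.7 and 73.2 CPM in M-TTPΔARE and 51.4, 53.1, 53.4, 66.8 and 117 CPM in M-WT (log2 fold change -0.11, SE 0.26, edgeR adjusted p = 0.867), and this sign was positive without M-WT replicate 5 or M-TTPΔARE replicate 1. The shared genotype effect of Egr1 over the 3 sets was 0.43 (SE 0.20, unadjusted p = 0.0394, edgeR adjusted p = 0.376), and those of Fos, Fosl2 and Jun were 0.17 (SE 0.43), 0.40 (SE 0.25) and -0.09 (SE 0.19).
Ier2 varied from 65.6 to 163 CPM over the 24 libraries, and its genotype differences were 0.04 (SE 0.18), 0.06 (SE 0.15) and -0.06 (SE 0.19) on the log2 scale in young HSCs, middle-aged HSCs and MPP3 cells. The genotypes overlapped in all 3 sets (edgeR adjusted p = 0.945, 0.884 and 0.93).
Fosb and Egr3 were tested at few counts. The genotype difference of Fosb was -0.68 (SE 0.58), 0.69 (SE 0.61) and -0.08 (SE 0.97) on the log2 scale in young HSCs, middle-aged HSCs and MPP3 cells. That of Egr3, an EGR factor induced by receptor signaling, was 0.96 (SE 0.64) in young and 1.65 (SE 0.91) in middle-aged HSCs, and Egr3 had too few counts for a test in MPP3 cells. The groups overlapped for both genes.

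Atf3, a bZIP factor induced by stress and in activated myeloid cells, was the gene that set a group of libraries apart. It was at 8.5, 3.07, 3.28 and 2.87 CPM in Y-TTPΔARE MPP3 cells and at 0.636, 0.0609, 0.744 and 0.338 CPM in Y-WT MPP3 cells, and at most 0.99 CPM in every HSC library. Every Y-TTPΔARE MPP3 library thus lay above all other libraries, and 4.22% of all genes were likewise higher in MPP3 cells with no overlap between the genotypes. The log2 fold change between the genotypes was 3.30 (SE 0.67, edgeR adjusted p = 0.0362), at a logCPM of 1.24. It therefore passed the adjusted p, as 1.89% of all genes did in this direction, and missed the limit on logCPM.
The adjusted p of Atf3 ran from 0.0393 to 0.162 with each MPP3 library left out, and the log2 fold change from 2.80 to 3.69. In 7 of these 8 fits the adjusted p was not below 0.05, among them the 4 without a Y-TTPΔARE library (0.0518 to 0.162). With all MPP3 libraries, DESeq2 gave 3.29 (SE 0.65, adjusted p = 2.63e-05), without a call because of the logCPM limit. The cell type by genotype difference was 3.73 (SE 0.93, unadjusted p = 0.001, edgeR adjusted p = 0.104), and none of the 10 genes was called in that test (0.429% of all genes called, 1 of the 10 and 10.7% of all genes at an unadjusted p under 0.05, 0 of the 10 called by DESeq2). By DESeq2 this difference of Atf3 was 3.865 (SE 0.90, adjusted p = 0.00194), again under the logCPM limit.
In the same MPP3 comparison, 5 of 25 tested genes of a list of 30 other early genes were called higher and 0 lower, against 1.58% of all genes called higher. The median log2 fold change of the 21 over the logCPM limit was 0.41, and that of all such genes -0.00244. The list was chosen with earlier results of these data known, so these values describe it and are no independent test. Klf2 and Klf4, Krüppel-like factors of monocytes and quiescent lymphocytes, rose from a mean of 1.06 to 15.7 CPM (log2 fold change 3.92, SE 0.21, edgeR adjusted p = 7.16e-05) and from 0.69 to 5.15 CPM (2.90, SE 0.53, edgeR adjusted p = 0.0201). Btg2, an antiproliferative early gene, rose by 0.80 (SE 0.17, edgeR adjusted p = 0.0411).
Of 17 bZIP partners of AP-1, all tested, 2 were called higher. Batf3, which pairs with JUN proteins in dendritic cells, was at 0.191, 0.0609, 0.476 and 0.789 CPM in Y-WT MPP3 cells and at 19.2, 9.36, 9.29 and 21.6 CPM in Y-TTPΔARE MPP3 cells (log2 fold change 5.28, SE 0.59, edgeR adjusted p = 0.00119). Maf rose by 1.22 (SE 0.26, edgeR adjusted p = 0.0446). Dusp6, a phosphatase of ERK and 1 of 10 feedback genes called, rose by 0.74 (SE 0.15, edgeR adjusted p = 0.0375), and 0 of 20 inducers and 0 of 13 heat shock genes were called. The genotype effects on Klf2 and Batf3 also differed between MPP3 cells and HSCs by the interaction test.
Some summed marker levels also differed between the genotypes of MPP3 cells. The 8 monocyte and macrophage markers summed to 503, 483, 423 and 610 CPM in Y-TTPΔARE MPP3 cells and to 382, 130, 298 and 223 CPM in Y-WT MPP3 cells. Adgre1 and Cd68, 2 of the 8, were called higher. The 7 erythroid markers summed to 51.7 to 129 CPM against 12 to 28.8 CPM. The MPP and myeloid progenitor markers summed to 3420 to 4950 CPM against 2260 to 3580 CPM, with Elane and Irf8, 2 of the 10, called higher. The 6 megakaryocyte and platelet markers were lower, at 81 to 103 CPM against 142 to 171 CPM, with Itga2b called lower. The sums of HSC, mature neutrophil, B-cell and plasma-cell, T- and NK-cell, and endothelial and stromal markers overlapped between the genotypes. Of the monocyte and macrophage markers, Adgre1 was at 14.1 to 27 CPM against 1.96 to 5.64 CPM. C1qa, which was not called and overlapped, was at 17.6 to 46.5 CPM against 2.74 to 17.8 CPM, and none was at 0. Their part in the rise of Atf3 was not tested.

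**Figure D3:**
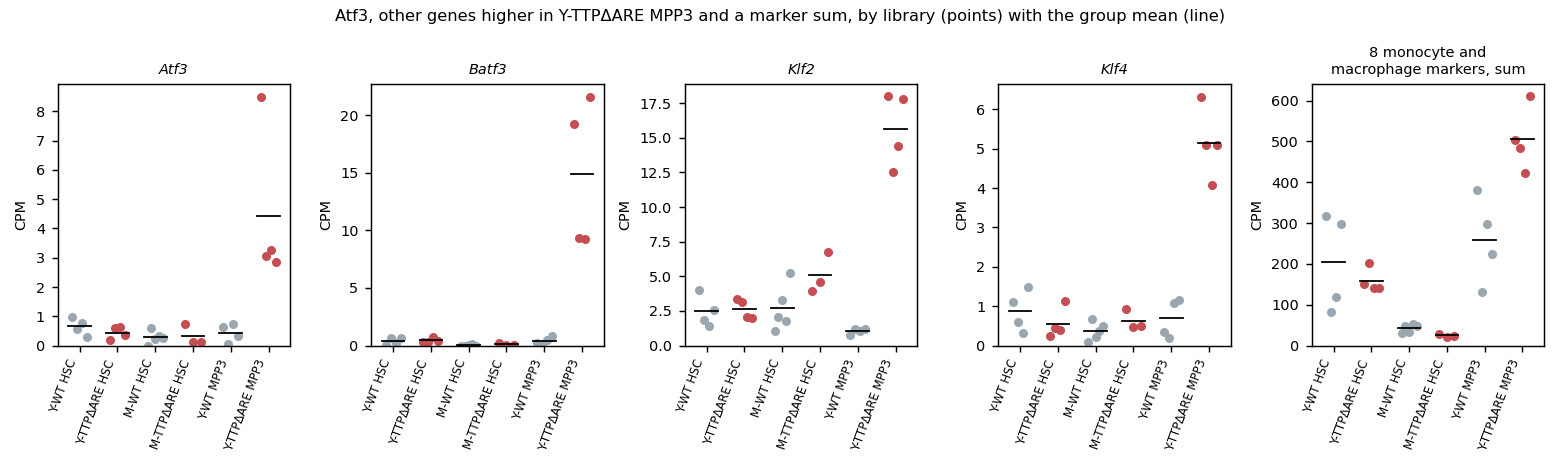
CPM (y axes, each from 0) of Atf3, Batf3, Klf2, Klf4 and the sum of 8 monocyte and macrophage markers in the 6 groups (x axis), with points for libraries and a line for the group mean, grey for WT and red for TTPΔARE. The 4 Y-TTPΔARE MPP3 libraries lie above all others in each panel.

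The second question was how the genes differ between HSCs and MPP3 cells of the same age and genotype. The titles number the HSC and MPP3 libraries in separate runs, so cell type and set of libraries cannot be told apart. In WT, 3 of 9 tested genes were called lower in MPP3 cells and 0 higher, against 7.69% of all genes called lower and 22.2% called either way.
Egr1 was at 36.1 ± 12.3 CPM (SD, n = 4) in Y-WT HSCs and fell to 11.6 ± 3.92 CPM (n = 4) in Y-WT MPP3 cells (log2 fold change -1.61, SE 0.33, edgeR adjusted p = 0.0066). Jun fell from 39.9 ± 10.1 to 24.3 ± 3.32 CPM (SD, n = 4 each), or by 0.69 on the log2 scale (SE 0.19, edgeR adjusted p = 0.026). Jund fell from 55.6 ± 7.04 to 35.6 ± 5.3 CPM (SD, n = 4 each), or by 0.61 (SE 0.15, edgeR adjusted p = 0.0149). The groups did not overlap for any of them, as for 15.1% of all genes in this direction. Without Y-WT MPP3 replicate 2 the call of Egr1 was left, and those of Jun (edgeR adjusted p = 0.0952) and Jund (edgeR adjusted p = 0.0744) were lost. Jun was also lost without Y-WT MPP3 replicate 3 (edgeR adjusted p = 0.0577) or 4 (edgeR adjusted p = 0.0581), and in a fit of all 24 libraries (-0.64, SE 0.31, edgeR adjusted p = 0.145). The other tested genes in WT included Fos at 0.11 (SE 0.62), Fosl2 at 0.09 (SE 0.26), Junb at -0.39 (SE 0.20) and Ier2 at -0.13 (SE 0.18), all with overlapping groups.
In TTPΔARE, Egr1 was the gene called lower, 1 of 9 tested (7.22% of all genes called lower, 16.3% either way). It fell from 55.6 ± 22.1 to 18.1 ± 5.82 CPM (SD, n = 4 each), again a log2 fold change of -1.61 (SE 0.31, edgeR adjusted p = 0.00517), and the groups did not overlap, as for 12.6% of all genes in this direction. Jun and Jund differed by -0.36 (SE 0.32) and -0.21 (SE 0.19), with edgeR adjusted p = 0.536 and 0.561. Atf3 was higher in MPP3 cells by 3.31 (SE 0.53, edgeR adjusted p = 0.00161) at a logCPM of 1.29, under the limit, and 9.81% of all genes passed the adjusted p alone in this direction.
In TTPΔARE, libraries with the same replicate number deviated together in HSCs and MPP3 cells. The labels do not say that these libraries pair, so the pairing used next is inferred from the counts. Fos was 2.77, 2.41, 3.25 and 2.16 times as high in the MPP3 library as in the HSC library of the same number, and Fosl2 0.664, 0.675, 0.387 and 0.595 times as high. Without pairing, Fos differed by 1.40 (SE 0.48, edgeR adjusted p = 0.0704) and Fosl2 differed by -0.73 (SE 0.48, edgeR adjusted p = 0.374). With the replicate number as a block, both were called, at 1.39 (SE 0.24, edgeR adjusted p = 0.00544) and -0.81 (SE 0.16, edgeR adjusted p = 0.00882), so that 3 genes were called with Egr1, where 17.6% of all genes were called. Jun was 0.942, 0.812, 0.601 and 0.632 times as high in the MPP3 library of a pair (blocked log2 fold change -0.44, SE 0.14, edgeR adjusted p = 0.0705), and Ier2 0.81, 0.961, 0.71 and 0.765 times. All 4 pairs thus had less Jun and Ier2 in the MPP3 library, without a call. Without pairing, Fos was also called without Y-TTPΔARE MPP3 replicate 4 (1.67, edgeR adjusted p = 0.0275).
Without scaling factors, the share of higher calls over all genes went from 65.4% to 34.3% in WT and from 55.7% to 36.7% in TTPΔARE, and the median log2 fold change of all genes from -0.16 to -0.38 and from -0.05 to -0.20. Egr1, Jun and Jund were called lower in WT and Egr1 in TTPΔARE under that setting too, and Junb was added to the calls in WT.

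The counts of related genes are read against all genes, of which 14.5% were called higher and 7.69% lower in MPP3 cells in WT, and 9.07% and 7.22% in TTPΔARE. Of 10 EGR co-repressors and feedback genes, 3 were called lower in MPP3 cells in each genotype and 0 higher: Spry1, an inhibitor of receptor signaling to ERK, Dusp4, a nuclear MAP kinase phosphatase, and Nab1, a co-repressor of EGR proteins. Spry1 fell by 1.84 on the log2 scale in WT (SE 0.20, edgeR adjusted p = 2.52e-04) and by 1.97 in TTPΔARE (SE 0.20, edgeR adjusted p = 1.15e-04). Of the other early genes, 4 were called higher and 4 lower of 27 tested in WT, and 5 and 4 of 28 in TTPΔARE, with Btg2, Dusp5 and Myc higher and Ccn2, Maff and Ppp1r15a lower in both. The 4 of 27 higher in WT were close to the share of all genes. Of 13 heat shock genes, 6 were called higher in WT and 3 in TTPΔARE, among them Hspe1 and Hspd1, the mitochondrial chaperonins, and 0 lower. The bZIP factor Batf2 fell by 0.90 in WT (SE 0.12, edgeR adjusted p = 6.09e-04) and by 0.80 in TTPΔARE (SE 0.14, edgeR adjusted p = 0.00347). Of 20 kinases and SRF cofactors, 7 were called higher in WT and 1 lower in TTPΔARE.

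The third question was the age of the HSCs, where age and set of libraries likewise cannot be told apart. These comparisons share their young HSC libraries with those of genotype and of cell type, so values set side by side are not independent. In TTPΔARE, 2 of 10 genes were called higher in middle-aged HSCs and 0 lower, against 4.98% of all genes called higher and 8.22% either way. Fos was at 2.38 ± 1.3 CPM (SD, n = 4) in young HSCs and at 26.3 ± 5.52 CPM (n = 3) in middle-aged ones, 11.1 times as high (log2 fold change 3.47, SE 0.34, edgeR adjusted p = 2.04e-04). Jun rose from 26.4 ± 7.98 to 77.5 ± 12.5 CPM, or 2.96 times (log2 fold change 1.56, SE 0.19, edgeR adjusted p = 7.34e-04). The lowest M-TTPΔARE library, at 22.8 CPM for Fos and 70.3 CPM for Jun, lay above the highest Y-TTPΔARE library, at 3.95 and 37.5 CPM, as in 10.7% of all genes. Both calls were kept with each of the 7 libraries left out.
Fosb, a FOS member close to the counting limit, was at 1.27, 1.36 and 1.97 CPM in M-TTPΔARE and at 0.516, 0.539, 0.169 and 0.601 CPM in Y-TTPΔARE (log2 fold change 1.75, SE 0.51, edgeR adjusted p = 0.0604). Fosl2 differed the other way by -1.14 (SE 0.34, edgeR adjusted p = 0.0675), and it was called lower without Y-TTPΔARE replicate 4 (-1.40, edgeR adjusted p = 0.00351). Egr1 and Jund differed by 0.17 (SE 0.28) and 0.23 (SE 0.16), with edgeR adjusted p = 0.844 and 0.476.
In WT, none of the 10 was called between the ages (12.1% of all genes called, 3 of the 10 and 37.7% of all genes at an unadjusted p under 0.05, 1 of the 10 called by DESeq2). Egr1 was at 51.4 to 117 CPM in M-WT and at 20.8 to 50.8 CPM in Y-WT, with no overlap (log2 fold change 0.89, SE 0.29, edgeR adjusted p = 0.0527), and 11.7% of all genes did not overlap in this direction. It was the gene DESeq2 called (adjusted p = 0.042), and without Y-WT replicate 1 edgeR called Egr1 (1.10, adjusted p = 0.014) and Jund (0.38, adjusted p = 0.0173). The libraries of Fos, Jun, Fosl2 and Jund overlapped between the ages in WT. Fosl2 differed by 0.50 (SE 0.19, edgeR adjusted p = 0.083) and passed without M-WT replicate 4 (0.57, edgeR adjusted p = 0.0495). Fos and Jun differed by 1.58 (SE 0.84, edgeR adjusted p = 0.192) and 0.47 (SE 0.32, edgeR adjusted p = 0.305), and Jund by 0.28 (SE 0.11, edgeR adjusted p = 0.087). Without M-WT replicate 5, Fos and Jun differed by 0.29 (edgeR adjusted p = 0.748) and 0.09 (edgeR adjusted p = 0.789).
The age effect was not shown to depend on genotype. In the age by genotype test none of the 10 was called (0.0213% of all genes called, 2 of the 10 and 15.0% of all genes at an unadjusted p under 0.05, 1 of the 10 called by DESeq2). The difference was 1.85 (SE 1.04, edgeR adjusted p = 0.380) for Fos and -0.77 (SE 0.46, edgeR adjusted p = 0.399) for Egr1. Between the ages the summed monocyte and macrophage markers also differed, with 7 of the 8 called lower in M-TTPΔARE and 4 in M-WT. Of 10 HSC markers, 7 were called higher in each genotype, and of 10 MPP and myeloid progenitor markers 4 were called lower and 1 higher in each. Of 7 T- and NK-cell markers, 5 were called lower in M-TTPΔARE and 4 in M-WT, and 1, Klrb1c, was called higher in each. The part of these markers in the age differences was not tested. Without scaling factors, the share of higher calls over all genes between the ages in WT went from 69.4% to 48.4%.
Between the ages, 8.38% of all genes were called higher and 3.69% lower in WT, and 4.98% and 3.24% in TTPΔARE. Dusp4 rose by 1.21 in TTPΔARE (SE 0.14, edgeR adjusted p = 5.16e-04) and by 0.65 in WT (SE 0.11, edgeR adjusted p = 0.00277), and the SRF partners Elk4 and Mrtfb were called higher in both. Of the other early genes, 3 of 28 tested were called higher in TTPΔARE (Fosl1, Klf2 and Ppp1r15a) and 0 in WT, and the matricellular gene Ccn2, 1 gene of the list, was called lower in both. Of 20 inducers, 4 were called higher in WT and 2 in TTPΔARE, and of 10 feedback genes 2 were called higher in WT and 1 higher and 1 lower in TTPΔARE. Hspa8, Hspe1 and Hsph1, 3 of 13 heat shock genes, were called lower in M-TTPΔARE than in Y-TTPΔARE, and 0 of 13 in WT.
Between the genotypes of middle-aged HSCs, Dusp4 rose by 0.74 (SE 0.09, edgeR adjusted p = 0.0036) and Rps6ka3, a kinase downstream of ERK, fell by 0.97 (SE 0.14, edgeR adjusted p = 0.00772). They were 1 of 10 feedback genes and 1 of 20 inducers called, against 1.41% of all genes. In young HSCs 0 genes of the 5 related lists were called.

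**Figure D4:**
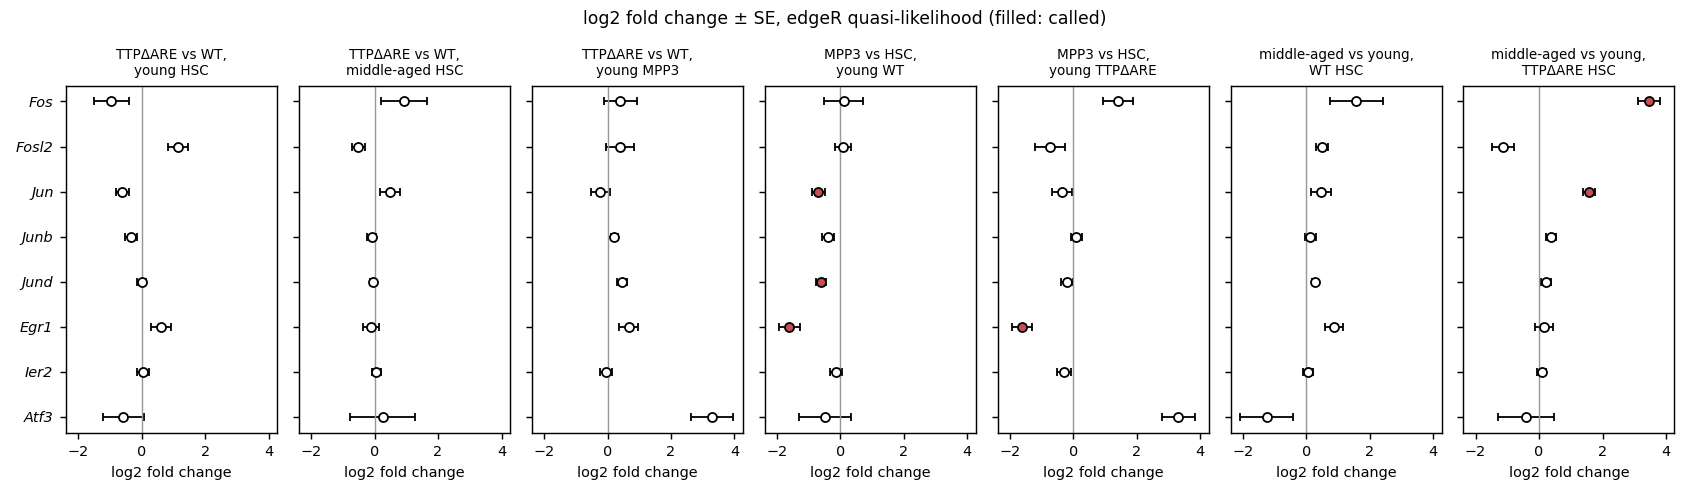
log2 fold change ± SE (x axes, edgeR quasi-likelihood) of 8 genes (y axis) in 7 comparisons of a pair of groups, filled where the gene was called. Egr1 is filled in both MPP3 panels at -1.61, Jun and Jund in the WT one, Fos (3.47) and Jun (1.56) in the TTPΔARE age panel, and Atf3 at 3.30 and 3.31 is unfilled because its logCPM is under the limit.

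The genes varied together between libraries of the same group. After the group mean of log2 CPM was subtracted, the mean deviation of the 7 genes over the logCPM limit was highest in M-WT replicate 5 (0.763) and lowest in Y-TTPΔARE MPP3 replicate 4 (-0.538). In each of the 4 young groups, the library numbered replicate 1 had the highest mean deviation of its group (0.473 to 0.523). The summed smell and pheromone receptor genes were lowest in replicate 1 of both young HSC groups and of Y-TTPΔARE MPP3 cells. In HSCs they were at 59.9 CPM against 643 to 1048 CPM in Y-WT and at 75.0 CPM against 336 to 408 CPM in Y-TTPΔARE. In Y-TTPΔARE MPP3 cells they were at 44.7 CPM against 52.4 to 507 CPM. At 183 CPM in replicate 1 of Y-WT MPP3 cells they were not the lowest. Their part in these deviations was not tested.
Against Fos, the deviations of the 24 libraries had Pearson's r = 0.829 and Spearman's rho = 0.806 for Jun (permutation within groups, adjusted p = 1.2e-04 and 3.6e-04 over 6 relations). They had r = 0.780 and rho = 0.763 for Egr1 (permutation, adjusted p = 2.6e-04 and 7.2e-04) and r = 0.767 and rho = 0.705 for Ier2 (permutation, adjusted p = 2.4e-04 and 0.0019). The values were r = 0.559 and rho = 0.535 for Jund (permutation, adjusted p = 0.0086 and 0.027), r = 0.518 and rho = 0.369 for Junb (permutation, adjusted p = 0.044 and 0.15) and r = 0.27 and rho = 0.27 for Fosl2 (permutation, adjusted p = 0.19 and 0.25). These p-values treat the 24 libraries as independent and leave out the inferred pairing of young TTPΔARE HSC and MPP3 libraries, so they may be too small.
Without the 2 libraries farthest in Fos, M-WT replicate 5 and Y-WT HSC replicate 4, r was 0.801 for Jun, 0.697 for Egr1, 0.725 for Ier2, 0.600 for Jund, 0.458 for Junb and 0.460 for Fosl2. Within the sets, r for Jun was 0.695 in young HSCs, 0.975 in middle-aged HSCs and 0.763 in MPP3 cells, and that for Egr1 was 0.885, 0.886 and 0.574. Fosl2 differed from the others, with r = 0.784 in MPP3 cells, 0.351 in young HSCs and -0.554 in middle-aged HSCs.
Within young TTPΔARE mice, the libraries stood in the same order for Fos and for Jun in HSCs as in MPP3 cells. Fosl2 was highest in replicate 2 and lowest in replicate 4 in both.

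**Figure D5:**
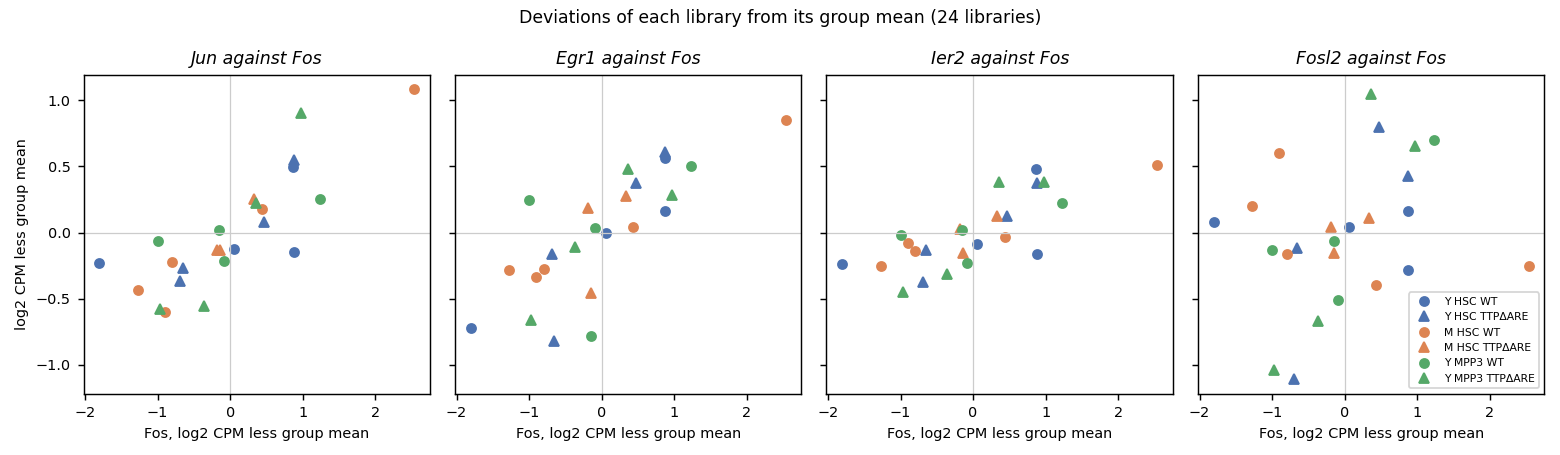
Deviation of log2 CPM from the group mean in each of 24 libraries, for Fos (x axes) against Jun, Egr1, Ier2 and Fosl2 (y axis), coloured by set, with circles for WT and triangles for TTPΔARE. Jun, Egr1 and Ier2 follow Fos (r = 0.829, 0.780 and 0.767), with M-WT replicate 5 at the upper right, and Fosl2 follows it less closely (r = 0.27).

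Among 13599 genes over the logCPM limit, those whose deviations were most like the mean of the 7 genes were Gm11175 (r = 0.853 over 24 libraries), Junos (0.818), Dusp1 (0.806), Ppp1r15a (0.805) and P2rx4 (0.803). Dusp1 is a MAP kinase phosphatase and Ppp1r15a a stress-induced phosphatase subunit, both early genes. Without M-WT replicate 5 the values were 0.848, 0.769, 0.781, 0.797 and 0.799. Gm11175 is antisense to Jund and Junos antisense to Jun in the annotation (GENCODE M21, GRCm38), and Prdx2 overlaps Junb on the opposite strand. Whether reads were counted by strand is not given in the sources used here, so reads of these partners cannot be told apart, and the values of Jun, Junb and Jund share this limit. Atf3 overlaps a small RNA gene, Gm24748, on the opposite strand, Zfp36 overlaps an antisense gene, Gm44710, and the other 6 genes overlap no annotated gene.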

How the data were processed

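The deposited values are raw counts per gene that the authors made with cutadapt, STAR and featureCounts on mm10, as the submitters' processing notes name them, with Trim Galore! and GENCODE M22 by the study's methods. Strand and multimapping settings are not given in the sources used here, and the labels and the study's methods name different library kits. Groups came from the sample titles, and 0 columns belonged to other samples. Counts were fitted per comparison with edgeR 4.0.16 (filterByExpr, minimum count 10, minimum total 15, TMM, quasi-likelihood F test, R 4.3.3), with Benjamini-Hochberg adjustment over all genes tested. SEs were derived from the fold change and F, and tests of a difference between effects carried no fold limit. DESeq2 1.42.0 was an alternative, as were other scalings, no filter, no fold and logCPM limits, all 24 libraries in 1 fit, the replicate number as a block and each library left out. The fits were tested on simulated counts. Gene models and 3′ UTRs are from GENCODE M21 (GRCm38). For each gene the transcript with the longest coding part was used, and among equals the one with the longest 3′ UTR.

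The 10 genes and the lists of related genes were chosen with earlier results of these data known. Named list genes are, in each comparison, the called ones whose groups do not overlap, at most the 3 largest per list, and other called genes are given by name only. The most similar genes are the 5 with the highest r. Same-numbered TTPΔARE libraries of HSCs and MPP3 cells correlated in their deviations from group means (r = 0.229, 0.17, 0.197 and 0.145 over 13599 genes, each best with its own number), so the numbers were taken to pair them. In WT this held for replicates 2 (r = 0.14) and 4 (r = 0.18) and not for 1 and 3. The labels name no pairing, so it is an inference from these same counts.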

Additional observations from a re-analysis of the deposited data

Results flagged for a closer look

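In groups of 4 or 5 libraries, 7 of 50 combinations of gene and group had a highest library whose gap to the next exceeded Dixon's 95% critical value. For normally distributed values chance gives about 1 in 20, or 2.5. The gaps were taken on CPM without a log scale and normality was not checked, so chance may give more. In M-WT HSC replicate 5 these were Fos at 46.8 CPM (others 3.28 to 10.8), Egr1 at 117 CPM (others 51.4 to 66.8) and Ier2 at 163 CPM (others 96.1 to 112). In Y-WT HSC replicate 1 they were Jun at 55 CPM (others 33.4 to 35.9) and Ier2 at 150 CPM (others 91.2 to 101). Jund was at 43.5 CPM in Y-WT MPP3 replicate 1 (others 32.2 to 34.1), and Atf3 at 8.5 CPM in Y-TTPΔARE MPP3 replicate 1 (others 2.87 to 3.28). The genes rise together within a library, so these values are not independent of each other.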

How the results depend on the processing

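Of the 10 comparisons, RLE scaling and library totals left the number of called genes within 1.5 times in all 10. All 24 libraries in 1 fit did so in the 9 comparisons it could be made for, although Jun between cell types in WT lost its call (-0.64, edgeR adjusted p = 0.145). DESeq2 called 1 gene in young HSCs (Fosl2), 1 in the age by genotype test (Fosl2), 1 between ages in WT (Egr1) and 2 between cell types in TTPΔARE (Egr1 and Fos). Without a filter on low counts, 2 were called between cell types in TTPΔARE, 2 between ages in WT and 4 between ages in TTPΔARE. By adjusted p alone, Atf3 brought the counts to 1 in MPP3 cells and 2 between cell types in TTPΔARE. With the replicate block, 3 were called between cell types in TTPΔARE, 2 (Fos and Jun) between genotypes in middle-aged HSCs and 2 (Fos and Jun) in the age by genotype test. The middle-aged numbers do not pair the samples (r of at most 0.0149), and M-WT replicates 4 and 5 have no partner, so the block in effect drops them. It changed no other number of called genes by over 1.5 times.
With each library left out, the number called ran from 0 to 2 between genotypes in middle-aged HSCs, from 1 to 3 between cell types in WT, from 1 to 2 in TTPΔARE, from 0 to 2 between ages in WT and from 2 to 3 in TTPΔARE, and it was 0 throughout for the other 5 comparisons.
Signs turned for these log2 fold changes, none of them called. Those of Jund in young HSCs became 0.0083 by DESeq2 and by RLE scaling, 0.064 without a filter and 0.031 with all 24 libraries, and ran from -0.084 to 0.15 with a library left out. Ier2 in young HSCs became -0.0033 by library totals. Egr1 in middle-aged HSCs became 0.25 with the block. With a library left out the ranges were -0.043 to 0.29 (Ier2, young HSCs), -0.15 to 0.024, -0.24 to 0.17 and -0.010 to 0.21 (Junb, Egr1 and Ier2, middle-aged HSCs), -0.0091 to 0.68 and -0.18 to 0.064 (Fosl2 and Ier2, MPP3 cells) and -0.045 to 0.38 (Egr1 between ages in TTPΔARE). The cause was not tested.
The share of all genes called was 1.25% by DESeq2 against 0.0246% in young HSCs, 3.95% against 1.41% in middle-aged HSCs and 4.03% against 1.71% in MPP3 cells. Precision was limited by 3 to 5 libraries a group and by levels under 3 CPM for Fosb, Egr3 and most Atf3 values.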
